A study of Mus musculus with 9 samples.

Results

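The set described here holds the nuclear genes of oxidative phosphorylation: every row of the deposited table whose symbol starts with Nduf, Uqcr or Atp5, the 4 genes Sdha, Sdhb, Sdhc and Sdhd, the cytochrome genes Cyc1 and Cycs, and the symbols made of Cox, a digit from 4 to 8 and a letter. These names gave 91 of the 18049 genes in the table. By role, 80 of the 91 encode structural subunits or cytochrome c: 36 in complex I, 4 in complex II, 10 in complex III with cytochrome c, 15 in complex IV and 15 in complex V. The other 11 are 7 complex I assembly factors (Ndufaf1 to Ndufaf7) and 4 genes that are not subunits of a complex in the usual sense (Atp5s, Atp5sl, Cox7a2l and Ndufa4l2). Of the 91, 88 reached 1 FPKM (fragments per kilobase of transcript, scaled to sequencing depth) in at least 3 of 9 libraries and were tested with 11309 genes in all. The 3 that did not are Cox4i2, Cox6b2 and Ndufa4l2.

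Oxidative phosphorylation takes place at the inner mitochondrial membrane. Complex I (NADH dehydrogenase) and complex II (succinate dehydrogenase, which is also an enzyme of the tricarboxylic acid cycle) pass electrons to coenzyme Q, complex III passes them on to cytochrome c, and complex IV (cytochrome c oxidase) passes them to oxygen, while complex V (ATP synthase) makes ATP from the proton gradient. Complexes I, III, IV and V combine subunits from nuclear and mitochondrial genes, and complex II is wholly nuclear. In macrophages, the balance between this pathway and glycolysis, and succinate oxidation by complex II in particular, is known to shift with activation.

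The cells were mouse bone marrow-derived macrophages from C57BL/6 animals aged 8 weeks, grown in RPMI medium. They were treated for 6 h with 1 µM 15d-PGJ2 (a cyclopentenone prostaglandin that can react with thiols and is a known ligand of PPARγ), with 1 µM of a compound labelled 15d-PGJ2-PC, or with medium as the control, 3 libraries each. PC is not written out in the labels, and nothing is said here of its structure. Nor do the labels say if a group's 3 libraries were separate cultures or animals, and p-values therefore measure the spread between libraries, which may be technical only. In bulk RNA, fewer cells of a type and less RNA per cell cannot be told apart.

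The libraries were alike in total signal, with a summed FPKM of 469548 to 492998. Macrophage markers were abundant in all 9 libraries (Lyz2, lysozyme, at 3053 FPKM or more) and their summed level, over 8 genes, was 6476 to 6678 FPKM in control, 5794 to 5967 with 15d-PGJ2-PC and 4954 to 5313 with 15d-PGJ2. All 8 fell with 15d-PGJ2 and 6 of 8 with 15d-PGJ2-PC (limma adjusted p below 0.05), beside falls of 25.0% and 14.1% of all tested genes. Transcripts of other tissues stood in the control libraries at low levels: 7 epidermis and hair genes summed to 26.8 to 30.6 FPKM there, against 0.680 to 1.03 with 15d-PGJ2 and 0.510 to 1.37 with 15d-PGJ2-PC, 7 stromal genes to 37.8 to 44.3 against 8.71 to 11.3 and 8.17 to 8.79, and 5 erythroid genes to 23.6 to 31.8 against 0.330 to 0.760 and 0 to 0.910. The 5 neutrophil genes summed to 23.8 to 27.9 FPKM in control, 10.9 to 14.8 with 15d-PGJ2 and 17.5 to 22.8 with 15d-PGJ2-PC. They did not move together: of the 3 tested, 1 rose and 2 fell with 15d-PGJ2. With 15d-PGJ2-PC 1 rose, 1 fell and 1 did not pass. Over all tested genes 22.2% rose with 15d-PGJ2 and 13.8% with 15d-PGJ2-PC. The part of any of these shifts in the results below was not tested.

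Taken as a sum, the set changed little, by -0.350% with 15d-PGJ2 and by -2.95% with 15d-PGJ2-PC against the control mean. Its summed level in the 3 control libraries was 8218, 8098 and 7684 FPKM. With 15d-PGJ2 the sum was 7927, 8048 and 7940.2 FPKM, and with 15d-PGJ2-PC it was 7882, 7755 and 7654 FPKM. The control range took in every 15d-PGJ2 library, and the lowest control library lay below 2 of the 3 15d-PGJ2-PC libraries. In each library the set made up 1.59% to 1.70% of all FPKM.

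In the comparison of 15d-PGJ2 with control, 22 of the 88 tested members passed the test (limma's moderated test on log2(FPKM + 1), adjusted p below 0.05), that is 25.0% of them, where 47.2% of all 11309 tested genes passed. Of the 22, 7 rose and 15 fell; over all tested genes 22.2% rose and 25.0% fell. Most members are abundant, and among the 3714 tested genes with a mean of 20 FPKM or more 62.9% passed. The split between rises and falls depended on the scaling, with 10 rises and 10 falls after quantile normalization against 6 and 19 after scaling to summed FPKM. The median log2 fold change of the members was -0.03 (0.02 after quantile normalization), and that of all tested genes was -0.02. The median size of a change, in either direction, was 0.10 for members and 0.24 for all tested genes, and 82 of 88 members changed by less than 25% on the fold scale (a rise of 25%, or the matching fall). The largest change that passed was the 1.41-fold rise of Ndufaf6.

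**Figure D1:**
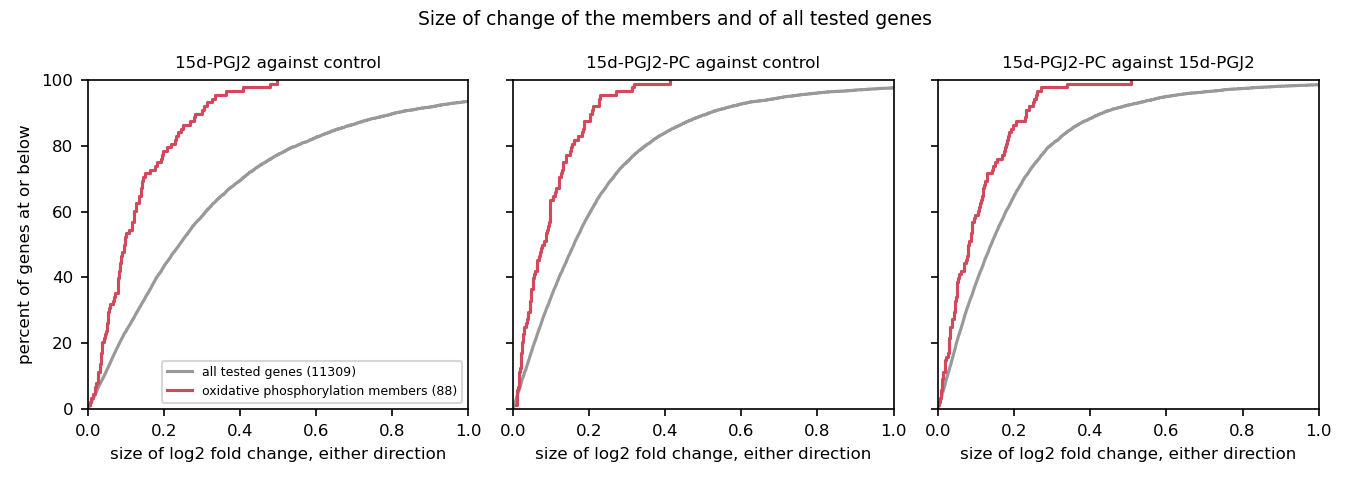
Size of the log2 fold change on the x axis (log2(FPKM + 1) scale, either direction) against the percent of genes at or below that size on the y axis, for the 88 tested members (red) and all 11309 tested genes (grey), in the 3 comparisons. The red curve lies to the left of the grey curve in each panel: median sizes were 0.10 against 0.24 for 15d-PGJ2, 0.08 against 0.16 for 15d-PGJ2-PC, and 0.08 against 0.14 for the comparison of the compounds.

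In the comparison of 15d-PGJ2-PC with control, 7 of 88 members passed (7.95%, where 27.8% of all tested genes did). All 7 fell and 0 rose, where over all genes 13.8% rose and 14.1% fell by limma. Among tested genes with a mean of 20 FPKM or more, 43.9% passed. At an unadjusted p below 0.05 there were 15 members in either direction, and 2 rises passed the adjusted test after quantile normalization, beside 5 falls. Without control replicate 1 there were 2 rises, and without control replicate 2 or 15d-PGJ2 replicate 2 there was 1. Leaving out 1 library moved the number of falls to 3 (without control replicate 1) or 4 (without 15d-PGJ2-PC replicate 3). The median log2 fold change was -0.05 for members and 0.00 for all genes, and 87 of 88 members changed by less than 25% on the fold scale.

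Between the 2 compounds, at the same dose and time, 12 of 88 members differed (13.6%, where 20.6% of all tested genes did). Of these, 6 were higher with 15d-PGJ2-PC than with 15d-PGJ2 and 6 were lower, where 12.3% of all genes were higher and 8.30% lower. Scaling changed that split to 7 higher and 4 lower (summed FPKM) or 4 higher and 8 lower (median ratio). Among tested genes with a mean of 20 FPKM or more, 35.9% differed between the compounds. The number of members higher with 15d-PGJ2-PC dropped to 2 when replicate 2 or 3 of 15d-PGJ2 was left out, or replicate 2 of 15d-PGJ2-PC. The number lower dropped to 2 without 15d-PGJ2 replicate 3 and to 3 without 15d-PGJ2-PC replicate 1 or 3. The 3 comparisons share libraries in pairs, so values of a gene are given below side by side and not as separate evidence.

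**Figure D2:**
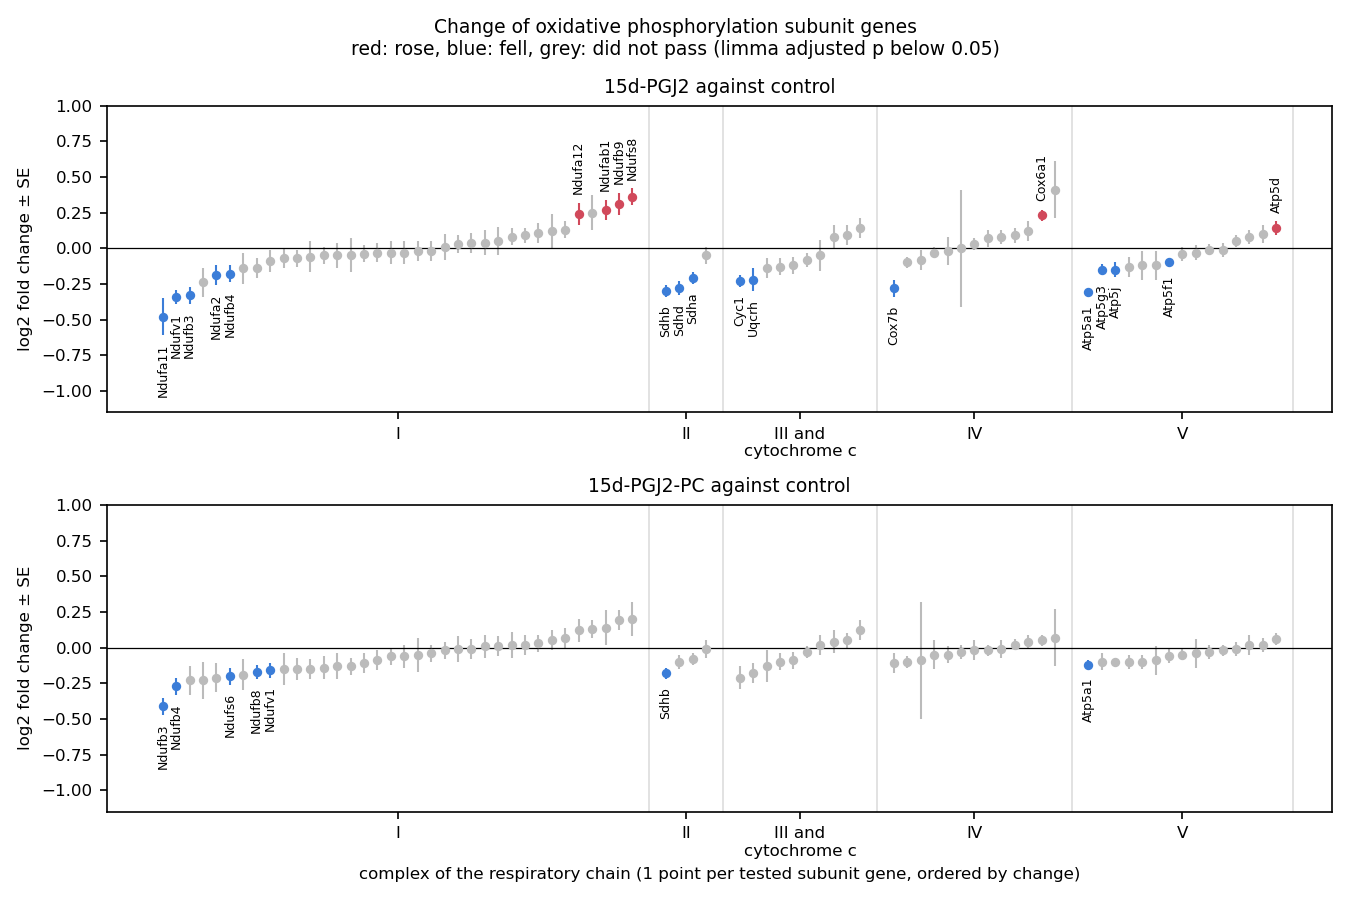
Log2 fold change ± SE (y axis, log2(FPKM + 1) scale) of each tested subunit gene, grouped by complex on the x axis and ordered by change, for 15d-PGJ2 (upper panel) and 15d-PGJ2-PC (lower panel) against control. Red points rose, blue points fell and grey points did not pass; the complex II points of the upper panel run from -0.30 to -0.05, and 3 of the 4 are blue.

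Complex II was the complex with the largest share of its tested genes called in the comparison of 15d-PGJ2 with control. Of its 4 subunit genes, 3 fell with 15d-PGJ2 (75.0%, beside 25.0% falls over all tested genes), and the median log2 fold change was -0.24 (-0.28 to -0.17 over the scalings). With only 4 genes such a share is a description. All 4 averaged 62.1 FPKM or more over the libraries. Among tested genes with a mean of 20 FPKM or more, 62.9% passed with 15d-PGJ2 in either direction. With 15d-PGJ2-PC, 1 of 4 fell (25.0%, beside 14.1% falls over all tested genes). The count of 3 was the same in all 18 refits (other pseudocount, filters, scalings and models, and each of the 9 libraries left out). All 4 genes changed by less than 25%, so none passes when a change of that size is also required.

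Sdhb encodes the iron-sulfur subunit that carries electrons from the flavin to coenzyme Q (chromosome 4, 140961271 to 140979198). Its level in the control libraries was 107, 112 and 110.2 FPKM. With 15d-PGJ2 it was 85.2, 90.2 and 91.0 FPKM, and with 15d-PGJ2-PC it was 99.7, 93.8 and 96.1 FPKM. Every control library lay above every treated library, and every 15d-PGJ2-PC library lay above every 15d-PGJ2 library. The fall was -0.30 ± 0.04 (log2 fold change ± SE, limma adjusted p = 0.000117) with 15d-PGJ2 and -0.18 ± 0.04 (adjusted p = 0.00664) with 15d-PGJ2-PC. The difference between the compounds was 0.12 (95% interval 0.03 to 0.21) and missed the threshold after adjustment (limma adjusted p = 0.0620), so the data do not settle whether the 2 falls differ. It passed when scaled to summed FPKM (0.14, adjusted p = 0.0346).

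Sdha encodes the catalytic flavoprotein subunit that oxidizes succinate (chromosome 13, 74322255 to 74350240). It was measured at 79.7, 77.2 and 86.1 FPKM in control and at 68.8, 69.8 and 71.4 FPKM with 15d-PGJ2, without overlap. The 15d-PGJ2-PC libraries, at 76.2, 76.0 and 76.9 FPKM, lay between the other groups. The fall with 15d-PGJ2 was -0.21 ± 0.04 (limma adjusted p = 0.00287), and the value for 15d-PGJ2-PC, -0.08 ± 0.04, did not pass (adjusted p = 0.204). Sdha was higher with 15d-PGJ2-PC than with 15d-PGJ2 only without control replicate 3 (0.12, adjusted p = 0.0299) or in the fit on the 6 libraries of the 2 groups (0.12, adjusted p = 0.0426).

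Sdhd encodes the small membrane anchor subunit (chromosome 9, 50596340 to 50603849). Control libraries held 71.8, 67.5 and 63.7 FPKM, 15d-PGJ2 libraries 57.1, 55.0 and 54.4 FPKM, and 15d-PGJ2-PC libraries 62.0, 66.7 and 60.7 FPKM. The 15d-PGJ2 libraries lay below all others, while control and 15d-PGJ2-PC libraries overlapped. The fall with 15d-PGJ2 was -0.28 ± 0.05 (limma adjusted p = 0.00137), against -0.10 ± 0.05 with 15d-PGJ2-PC (adjusted p = 0.209). Sdhd was higher with 15d-PGJ2-PC than with 15d-PGJ2 by 0.18 ± 0.05 (adjusted p = 0.0346). That call between the compounds was lost without 15d-PGJ2 replicate 2 (adjusted p = 0.0934) or 3 (0.104) and without 15d-PGJ2-PC replicate 1 (0.0640) or 2 (0.125). It was also lost without a filter (0.0566), by median ratio (0.0552), with quantile normalization (0.0737) and without limma's trend (0.0777).

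The other membrane anchor, Sdhc (chromosome 1, 171129157 to 171150640), did not pass in any comparison. It was measured at 74.3, 79.2 and 72.8 FPKM in control, at 68.4, 73.8 and 76.4 FPKM with 15d-PGJ2 and at 69.7, 81.9 and 73.6 FPKM with 15d-PGJ2-PC. The 3 groups overlapped, and the log2 fold change with 15d-PGJ2 was -0.05 (95% interval -0.19 to 0.09). That interval does not reach the estimates for Sdha, Sdhb and Sdhd, though the difference between genes was not tested. Summed over the 4 genes, complex II stood at 333, 336 and 333 FPKM in control, 279, 289 and 293 FPKM with 15d-PGJ2 and 308, 318 and 307 FPKM with 15d-PGJ2-PC, a change of the mean by -14.0% and -6.77%.

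**Figure D3:**
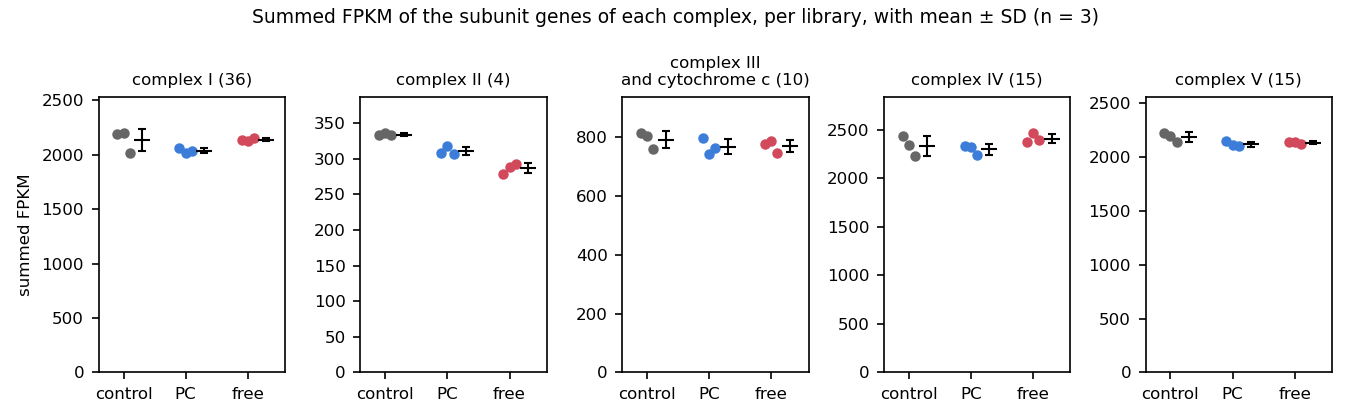
Summed FPKM of the subunit genes of each complex (y axis, from 0) in each library of the control, 15d-PGJ2-PC (PC) and 15d-PGJ2 (free) groups, with mean ± SD in black (n = 3). The complex II sums of the 3 groups do not overlap (333 to 336 in control, 307 to 318 with 15d-PGJ2-PC, 279 to 293 with 15d-PGJ2), while both treated groups overlap control in each of the other complexes.

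The promoter windows of the 3 complex II genes that fell are printed next, because their shared direction invites a look at shared sequence. Each runs from 250 bases before to 50 bases after the annotated start, on the strand of the gene, from RefSeq (GRCm38.p6, the assembly that mm10 names). Capitals mark matches, on either strand, to CCGGAAG, a form of the ETS motif bound by GABPA, and to GCATGCGC, a form of the motif bound by NRF1, both known regulators of respiratory chain genes.
Sdha (chr13:74350191-74350490, minus strand): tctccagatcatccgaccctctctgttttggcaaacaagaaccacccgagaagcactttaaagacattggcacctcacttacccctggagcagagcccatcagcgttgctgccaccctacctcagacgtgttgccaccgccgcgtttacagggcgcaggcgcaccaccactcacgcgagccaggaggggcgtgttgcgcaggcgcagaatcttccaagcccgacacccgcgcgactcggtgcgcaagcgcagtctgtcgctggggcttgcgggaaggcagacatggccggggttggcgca
Sdhb (chr4:140961021-140961320, plus strand): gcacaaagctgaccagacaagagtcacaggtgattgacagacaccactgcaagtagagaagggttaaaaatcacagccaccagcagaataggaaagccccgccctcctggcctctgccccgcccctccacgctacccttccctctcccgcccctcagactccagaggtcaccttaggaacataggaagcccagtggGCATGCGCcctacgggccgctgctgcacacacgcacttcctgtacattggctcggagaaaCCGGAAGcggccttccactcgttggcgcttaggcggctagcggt
Sdhd (chr9:50603800-50604099, minus strand): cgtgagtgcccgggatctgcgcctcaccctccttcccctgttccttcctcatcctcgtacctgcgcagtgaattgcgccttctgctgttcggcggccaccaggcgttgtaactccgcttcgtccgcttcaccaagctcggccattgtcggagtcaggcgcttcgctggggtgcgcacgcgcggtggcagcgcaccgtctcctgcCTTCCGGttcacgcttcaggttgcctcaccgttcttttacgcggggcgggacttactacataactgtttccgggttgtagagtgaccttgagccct
The Sdhb window holds both motifs, GCATGCGC with its first base at -54 from the start and CCGGAAG at 6. The Sdhd window holds CCGGAAG on the opposite strand at -46, and the Sdha window holds no match to either. These 3 windows therefore share no match to the 2 motifs, and a match is only a description of the letters. For Sdhc no window was used here.

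Over the whole set, 75 of 91 members had a window. GCATGCGC was found in 13 of them (17.3%, against 2.8% of the 27018 windows of the same length), CCGGAAG in 16 (21.3% against 9.1%), and TGACNNNGC, the core of the antioxidant response element bound by Nrf2, in 11 (14.7% against 12.5%). The members' windows were also richer in G and C, at a median of 58.7% against 52.7% for all windows, and the part of this in the shares was not tested. Each motif was counted on its own on both strands, so matches to different motifs can share letters at their ends. Of the members with a window, 12 fell with 15d-PGJ2, 5 rose, 57 did not pass and 1 was not tested. GCATGCGC was in 2 of those that fell, 1 of those that rose and 10 of the others, CCGGAAG in 3, 2 and 11, and TGACNNNGC in 1, 0 and 10. Nrf1, Gabpa and the mitochondrial transcription factor gene Tfam did not pass in any comparison: Nrf1 averaged 6.54 ± 1.02 FPKM in control and 6.61 ± 0.783 with 15d-PGJ2 (SD, n = 3), Gabpa 9.73 ± 0.737 and 8.67 ± 0.372, and Tfam 5.54 ± 0.170 and 5.56 ± 0.935.

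Sdha and Sdhd each start close to a gene read in the opposite direction, 77 and 52 bases away. Sdhd's neighbour Timm8b averaged 28.0 FPKM in control and 27.1 with 15d-PGJ2 (limma adjusted p = 0.703). Sdha's neighbour Ccdc127 averaged 12.7 FPKM in both (adjusted p = 0.973). Among all members, 22 have such a neighbour within 500 bases, and in 17 pairs both genes were tested. With 15d-PGJ2, 6 of these 17 members and 6 of the 17 neighbours passed (35.3% of the neighbours), 5 of the neighbours rising and 1 falling. Over all tested genes 47.2% passed, with 22.2% rising and 25.0% falling. Both genes passed in 2 pairs: Ndufa11 and Vmac fell, and Uqcrh fell while Lrrc41 rose.

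Complex I had 36 tested subunit genes, of which 4 rose and 5 fell with 15d-PGJ2, and 0 rose and 5 fell with 15d-PGJ2-PC. These are 25.0% and 13.9% of its genes, beside 47.2% and 27.8% of all tested genes. The median log2 fold changes were -0.03 and -0.06. Of its core subunits, which hold the flavin and the iron-sulfur clusters, Ndufv1 fell and Ndufs8 rose, while Ndufs1, Ndufs3, Ndufs7 and Ndufv2 lay between -0.14 and 0.04 without passing. After quantile normalization the 15d-PGJ2 split was 7 rises and 3 falls, with a median of 0.04. For 15d-PGJ2-PC there were 8 calls without control replicate 3, 2 without 15d-PGJ2-PC replicate 1, and 3 without control replicate 1 or 15d-PGJ2-PC replicate 3.

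Ndufv1 encodes the flavoprotein that takes electrons from NADH (chromosome 19, 4007499 to 4012755). Control libraries held 34.6, 34.0 and 33.2 FPKM. With 15d-PGJ2 the values were 27.6, 26.4 and 26.1 FPKM, and with 15d-PGJ2-PC they were 29.8, 31.2 and 29.8 FPKM. The 3 groups did not overlap, with 15d-PGJ2-PC between the others. The fall was -0.34 ± 0.05 with 15d-PGJ2 (limma adjusted p = 0.000135) and -0.16 ± 0.05 with 15d-PGJ2-PC (adjusted p = 0.0239), and the difference between the compounds was 0.17 ± 0.05 (adjusted p = 0.0210). The 15d-PGJ2-PC call was lost without control replicate 1 (adjusted p = 0.0789) or 2 (0.0666) and without 15d-PGJ2-PC replicate 1 (0.0756) or 3 (0.0739). The difference between the compounds was lost without 15d-PGJ2 replicate 2 (0.0656) or 3 (0.0758) and without 15d-PGJ2-PC replicate 2 (0.0806).

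Ndufs8, a core subunit with iron-sulfur clusters, lies on the same chromosome (chromosome 19, 3908863 to 3912774) and moved the other way. It was measured at 41.8, 39.9 and 39.2 FPKM in control, at 52.6, 48.3 and 55.6 FPKM with 15d-PGJ2 and at 43.0, 43.4 and 46.4 FPKM with 15d-PGJ2-PC. The groups did not overlap, and again 15d-PGJ2-PC lay between the others. Ndufs8 rose by 0.36 ± 0.06 with 15d-PGJ2 (limma adjusted p = 0.000394), and the value of 0.13 ± 0.06 with 15d-PGJ2-PC did not pass (adjusted p = 0.119). It was lower with 15d-PGJ2-PC than with 15d-PGJ2 (-0.23 ± 0.06, adjusted p = 0.0162), a call lost without 15d-PGJ2 replicate 3 (adjusted p = 0.0654) and without 15d-PGJ2-PC replicate 1 (0.0594) or 2 (0.0573). The windows of this pair of core subunits are shown because the genes moved in opposite directions, with capitals as above.
Ndufv1 (chr19:4012706-4013005, minus strand): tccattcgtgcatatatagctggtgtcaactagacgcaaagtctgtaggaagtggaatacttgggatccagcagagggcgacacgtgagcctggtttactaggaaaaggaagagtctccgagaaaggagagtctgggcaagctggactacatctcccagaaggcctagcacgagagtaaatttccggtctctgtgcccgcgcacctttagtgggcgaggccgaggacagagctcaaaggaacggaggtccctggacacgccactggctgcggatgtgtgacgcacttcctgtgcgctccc
Ndufs8 (chr19:3912725-3913024, minus strand): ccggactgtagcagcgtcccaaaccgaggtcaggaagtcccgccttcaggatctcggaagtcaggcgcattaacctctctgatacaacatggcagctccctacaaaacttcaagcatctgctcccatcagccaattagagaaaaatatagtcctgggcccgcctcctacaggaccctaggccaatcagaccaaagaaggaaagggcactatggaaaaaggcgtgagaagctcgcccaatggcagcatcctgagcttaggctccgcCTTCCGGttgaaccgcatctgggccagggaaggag
The Ndufs8 window holds CCGGAAG on the opposite strand with its first base at 15, and the Ndufv1 window holds none of the 3 motifs.

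Ndufb3, an accessory subunit of the membrane arm (chromosome 1, 58586397 to 58595964), fell with both compounds. Control libraries held 41.4, 38.6 and 42.6 FPKM, 15d-PGJ2 libraries 34.6, 30.6 and 32.1 FPKM, and 15d-PGJ2-PC libraries 30.2, 31.7 and 29.4 FPKM. All treated libraries lay below all controls, and the treated groups overlapped. The fall was -0.33 ± 0.06 with 15d-PGJ2 (limma adjusted p = 0.00105) and -0.41 ± 0.06 with 15d-PGJ2-PC (adjusted p = 0.000429), the latter the largest fall that passed among the members for that compound. The difference between the compounds was -0.09 (95% interval -0.22 to 0.05).

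Ndufb4, another accessory subunit of the membrane arm, stood at 73.9, 79.5 and 69.2 FPKM in control, 64.2, 65.2 and 66.5 FPKM with 15d-PGJ2 and 61.9, 57.4 and 64.8 FPKM with 15d-PGJ2-PC. Both treated groups lay below control. It fell by 0.27 on the log2 scale with 15d-PGJ2-PC (limma adjusted p = 0.00556) and by 0.18 with 15d-PGJ2 (adjusted p = 0.0259). The 15d-PGJ2 call was lost without control replicate 1 (adjusted p = 0.0580) or 2 (0.104) and without 15d-PGJ2 replicate 1 (0.0695) or 2 (0.0606). It was also lost with quantile normalization, where the value was -0.10 (0.167), and without the trend (0.0579).

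Ndufb8, also of the membrane arm (chromosome 19, 44548571 to 44555442), was the member of complex I with the largest difference between the compounds that passed. Control libraries held 108, 107 and 98.8 FPKM, 15d-PGJ2 libraries 107, 117 and 110.4 FPKM, and 15d-PGJ2-PC libraries 92.8, 88.1 and 97.5 FPKM. The 15d-PGJ2-PC libraries lay below all others, and the other groups overlapped. Ndufb8 was lower with 15d-PGJ2-PC than with 15d-PGJ2 by -0.26 ± 0.05 (limma adjusted p = 0.00530). It fell against control with 15d-PGJ2-PC (-0.17 ± 0.05, adjusted p = 0.0329), while its value with 15d-PGJ2 was 0.09 ± 0.05 (adjusted p = 0.195). The fall against control was lost without control replicate 1 (adjusted p = 0.110) or 2 (0.101) and without 15d-PGJ2-PC replicate 1 (0.0749) or 2 (0.118), and likewise without a filter (0.0561), with quantile normalization (0.0867) and without the trend (0.0823). It was lost too with replicate number added to the fit (a replicate block, adjusted p = 0.0587).

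Ndufab1, the acyl carrier protein of mitochondria, which is also a complex I subunit, rose with 15d-PGJ2. It was measured at 43.0, 42.1 and 43.7 FPKM in control, 50.7, 50.9 and 54.1 FPKM with 15d-PGJ2 and 45.0, 47.4 and 38.2 FPKM with 15d-PGJ2-PC. The 15d-PGJ2 libraries lay above all others. The rise was 0.27 ± 0.07 (limma adjusted p = 0.00937), and Ndufab1 was lower with 15d-PGJ2-PC than with 15d-PGJ2 by -0.25 ± 0.07 (adjusted p = 0.0278). The difference between the compounds was lost without 15d-PGJ2 replicate 2 (adjusted p = 0.0567) or 3 (0.0948) and without 15d-PGJ2-PC replicate 3 (0.0559), and likewise without a filter (0.0568) or the trend (0.0589).

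The other complex I genes that passed are accessory subunits, most of them named after their values were seen. Ndufb9 rose with 15d-PGJ2 from 65.7 ± 5.13 to 81.7 ± 9.51 FPKM (SD, n = 3; limma adjusted p = 0.00977). Ndufa12 rose from 57.2 ± 1.71 to 68.1 ± 7.79 FPKM (adjusted p = 0.0257), a call lost without control replicate 2 (0.0579) or 3 (0.0727) or 15d-PGJ2 replicate 3 (0.0861), and also without a filter (0.0529) or the trend (0.0531). Neither passed with 15d-PGJ2-PC, where the means were 71.4 ± 3.18 and 57.9 ± 4.48 FPKM. Ndufa12 passed as lower with 15d-PGJ2-PC than with 15d-PGJ2 when replicate 2 of 15d-PGJ2 (adjusted p = 0.0402) or of 15d-PGJ2-PC (0.0493) was left out, by median ratio (0.0483) and with quantile normalization (0.0384).

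Ndufa11 was the least abundant structural subunit of complex I, at about 26 reads a library, and the 1 with the largest fall with 15d-PGJ2. It was measured at 12.0, 11.1 and 8.45 FPKM in control, 7.91, 6.01 and 7.80 FPKM with 15d-PGJ2 and 8.37, 8.32 and 9.57 FPKM with 15d-PGJ2-PC. The 15d-PGJ2 libraries lay below all others, and control replicate 3 was the lowest control. The fall was -0.48 ± 0.13 (limma adjusted p = 0.0122), and without control replicate 1 it no longer passed (adjusted p = 0.0509). Ndufa2 fell from 108 ± 8.92 to 94.3 ± 3.96 FPKM (adjusted p = 0.0320), a call lost without control replicate 1 (0.0951) or 2 (0.120) or 15d-PGJ2 replicate 1 (0.105), without a filter (0.0619), with quantile normalization (0.0832) and without the trend (0.0703). A replicate block lost the 15d-PGJ2 call of Ndufa2 as well (0.0548). With 15d-PGJ2-PC Ndufa2 passed as a fall of -0.22 only without control replicate 3 (adjusted p = 0.0212).

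With 15d-PGJ2-PC, Ndufs6, a zinc-binding accessory subunit, fell from 53.0 ± 4.36 to 45.9 ± 0.658 FPKM (limma adjusted p = 0.0333). That call was lost without control replicate 1 (adjusted p = 0.115) or 3 (0.0596) and without 15d-PGJ2-PC replicate 1 (0.0615), 2 (0.0875) or 3 (0.0822). It was also lost without a filter (0.0561), with quantile normalization (0.0709) and without the trend (0.0683). Ndufa6 was lower with 15d-PGJ2-PC than with 15d-PGJ2 (83.6 ± 4.63 against 94.4 ± 3.99 FPKM, adjusted p = 0.0494), and that call was lost without control replicate 2 (0.0623), without any 15d-PGJ2 library (0.147, 0.0757 and 0.0778 for replicates 1, 2 and 3) and without any 15d-PGJ2-PC library (0.0706, 0.167 and 0.0554). The other losses were with a pseudocount of 0.1 (0.0510), without a filter (0.0874), when scaled to summed FPKM (0.0730) and without the trend (0.107). Against control, Ndufa6 passed as a rise with 15d-PGJ2 without control replicate 1 (0.18, adjusted p = 0.0270), by median ratio (0.15, 0.0474) and with quantile normalization (0.20, 0.0110). With a replicate block that rise passed as well (0.13, 0.0326).

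The most abundant complex I subunit, Ndufa7, stood at 133, 132 and 109.5 FPKM in control, 118, 134 and 114 FPKM with 15d-PGJ2 and 107, 112 and 119 FPKM with 15d-PGJ2-PC, and did not pass. Its groups overlapped. Without control replicate 3, the lowest control, it passed as a fall with 15d-PGJ2-PC (-0.23, limma adjusted p = 0.0355).

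Of the 7 complex I assembly factors, which help build the complex without staying in it, 1 passed with 15d-PGJ2 and 0 with 15d-PGJ2-PC. These are 14.3% and 0%, beside 47.2% and 27.8% of all tested genes. Ndufaf6 was measured at 3.35, 3.21 and 4.58 FPKM in control, 5.43, 5.13 and 6.30 FPKM with 15d-PGJ2 and 4.74, 6.28 and 3.74 FPKM with 15d-PGJ2-PC. All 15d-PGJ2 libraries lay above all controls, at about 28 reads a library over the 9. The rise was 0.50 ± 0.16 (limma adjusted p = 0.0275), and it was lost without control replicate 1 (0.0840) or 2 (0.0920) and without 15d-PGJ2 replicate 1 (0.0522) or 3 (0.0922), and also without a filter (0.0635). The other 6 factors averaged 1.81 to 9.24 FPKM in control.

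Complex III and cytochrome c had 10 tested genes, of which 2 fell and 0 rose with 15d-PGJ2 (limma), and none passed with 15d-PGJ2-PC, where 2 had an unadjusted p below 0.05. Beside these counts of 2 and 0 of 10, 47.2% and 27.8% of all tested genes passed. In both comparisons the changes were small, with medians of -0.10 and -0.06. Cyc1 encodes cytochrome c1, the subunit that hands electrons to cytochrome c (chromosome 15, 76343513 to 76346260). It stood at 50.5, 49.0 and 49.0 FPKM in control and at 43.2, 42.2 and 40.8 FPKM with 15d-PGJ2. With 15d-PGJ2-PC the values, 48.0, 47.2 and 50.6 FPKM, overlapped control and lay above all 15d-PGJ2 libraries. The fall with 15d-PGJ2 was -0.23 ± 0.04 (limma adjusted p = 0.00135). The value with 15d-PGJ2-PC was -0.03 ± 0.04 (adjusted p = 0.716), and the difference between the compounds was 0.20 ± 0.04 (adjusted p = 0.00716), which passed in all 18 refits and is below a change of 25%.

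Uqcrh, the hinge subunit next to cytochrome c1, was measured at 95.8, 100.2 and 98.2 FPKM in control, 90.1, 72.9 and 90.4 FPKM with 15d-PGJ2 and 82.5, 91.5 and 80.3 FPKM with 15d-PGJ2-PC. Both treated groups lay below control, and 15d-PGJ2 replicate 2 was the lowest library. The fall with 15d-PGJ2 was -0.22 ± 0.08 (limma adjusted p = 0.0429) and the value with 15d-PGJ2-PC was -0.21 ± 0.08 (adjusted p = 0.0762). The 15d-PGJ2 call was lost without any control library (adjusted p = 0.0680, 0.108 and 0.0847 for replicates 1, 2 and 3), without 15d-PGJ2 replicate 2 (0.127) and without 15d-PGJ2-PC replicate 1 (0.0536). It was also lost without a filter (0.0845), by median ratio (0.0597), with quantile normalization (0.129) and without the trend (0.0825). The same held with a replicate block (0.0692). The value with 15d-PGJ2-PC passed in the fit on 6 libraries (0.0193) and without 15d-PGJ2 replicate 2 (0.0124) or 15d-PGJ2-PC replicate 2 (0.0485).

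Cycs, which encodes cytochrome c itself, held 21.8, 22.8 and 26.2 FPKM in control, 24.9, 25.4 and 25.0 FPKM with 15d-PGJ2 and 23.5, 23.3 and 24.9 FPKM with 15d-PGJ2-PC. The groups overlapped, and the log2 fold change with 15d-PGJ2 was 0.09 (95% interval -0.06 to 0.23); without control replicate 3, the highest control, it passed as a rise of 0.16 (limma adjusted p = 0.0424). The Rieske iron-sulfur protein gene Uqcrfs1 averaged 38.5 ± 3.56 FPKM in control, 35.3 ± 1.38 with 15d-PGJ2 and 36.1 ± 1.26 with 15d-PGJ2-PC. It did not pass.

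The other genes of complex III also stayed under the threshold. Uqcrq, a small accessory subunit gene and the most abundant of the complex, held 187, 156 and 158 FPKM in control, 179, 198 and 174 with 15d-PGJ2 and 187, 178 and 178 with 15d-PGJ2-PC. Control replicate 1 lay within the range of the treated libraries and the other control libraries below it. Neither compound's value passed (limma adjusted p = 0.125 for 15d-PGJ2 and 0.235 for 15d-PGJ2-PC), and without control replicate 1 both passed as rises (0.22, limma adjusted p = 0.00902, and 0.20, adjusted p = 0.0241). The core proteins Uqcrc1 and Uqcrc2 averaged 71.6 ± 4.68 and 36.9 ± 1.27 FPKM in control, 65.4 ± 0.751 and 34.8 ± 1.03 with 15d-PGJ2, and 66.9 ± 5.36 and 38.1 ± 2.32 with 15d-PGJ2-PC. Uqcrc1 passed as a fall with 15d-PGJ2 without control replicate 3 (adjusted p = 0.0452) or when scaled to summed FPKM (0.0354). Uqcrb averaged 93.6 ± 4.41 FPKM in control, 84.8 ± 5.05 with 15d-PGJ2 and 82.4 ± 7.30 with 15d-PGJ2-PC. It passed as a fall with 15d-PGJ2-PC when replicate 1 of that group was left out (adjusted p = 0.0407), and with both compounds when scaled to summed FPKM (0.0397 for 15d-PGJ2 and 0.0425 for 15d-PGJ2-PC).

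Of complex IV, 13 of 15 listed genes were tested, and 1 rose and 1 fell with 15d-PGJ2, or 15.4% beside 47.2% of all tested genes. With 15d-PGJ2-PC 0 of 13 passed (limma), 1 had an unadjusted p below 0.05, and after quantile normalization 1 passed. Cox6a1 is the ubiquitous form of subunit 6a (chromosome 5, 115345652 to 115348958). It was measured at 366, 359 and 348 FPKM in control and at 408, 438 and 414 FPKM with 15d-PGJ2. The 15d-PGJ2-PC values, 385, 372 and 356 FPKM, overlapped control. The rise with 15d-PGJ2 was 0.23 ± 0.04 (limma adjusted p = 0.000645), and Cox6a1 was lower with 15d-PGJ2-PC than with 15d-PGJ2 (-0.18 ± 0.04, adjusted p = 0.00853). After quantile normalization the value for 15d-PGJ2-PC against control passed as a rise of 0.15 (adjusted p = 0.00971) and the difference between the compounds did not pass (-0.09, adjusted p = 0.0855). That difference was also lost without the trend (adjusted p = 0.0529).

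Cox7b, a small membrane subunit needed for assembly of the complex (chromosome X, 106015700 to 106022450), moved the other way. Control libraries held 48.2, 45.9 and 49.0 FPKM, 15d-PGJ2 libraries 41.6, 38.2 and 37.8 FPKM, and 15d-PGJ2-PC libraries 43.0, 48.0 and 47.5 FPKM. The 15d-PGJ2 libraries lay below all others. The fall was -0.28 ± 0.06 with 15d-PGJ2 (limma adjusted p = 0.00220) against -0.05 ± 0.06 with 15d-PGJ2-PC (adjusted p = 0.592). The difference between the compounds was 0.23 ± 0.06 (adjusted p = 0.0154) and was lost without 15d-PGJ2 replicate 2 (0.0567) or 3 (0.0602) and without 15d-PGJ2-PC replicate 2 (0.0620) or 3 (0.0559).

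**Figure D4:**
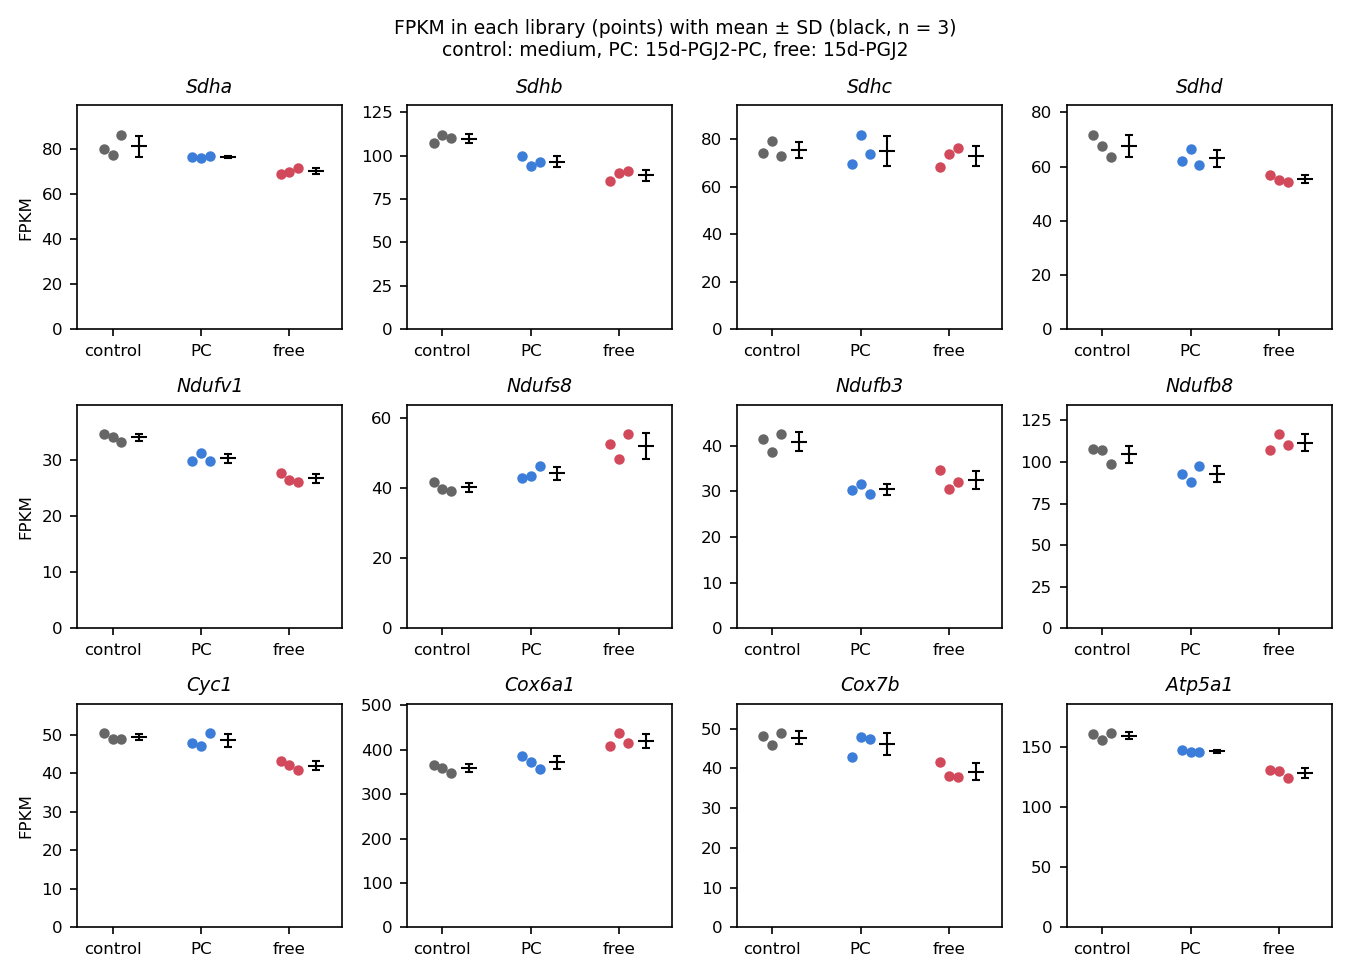
FPKM (y axis, from 0) of 12 members in each library of the control (grey), 15d-PGJ2-PC (blue) and 15d-PGJ2 (red) groups, with mean ± SD in black (n = 3). Sdha, Sdhb, Ndufv1, Ndufs8 and Atp5a1 have 3 separate groups with 15d-PGJ2-PC between the others, while Sdhc overlaps throughout and Ndufb8 is lowest with 15d-PGJ2-PC.

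Several complex IV subunits have tissue forms, and the ubiquitous ones were the abundant ones in these macrophages. Cox4i1, the ubiquitous form of subunit 4, stood at 396, 403 and 339 FPKM in control, 389, 402 and 398 with 15d-PGJ2 and 376, 390.5 and 359.9 with 15d-PGJ2-PC, whereas Cox4i2, the lung form, was at or below 0.260 FPKM in every library. The ubiquitous Cox8a stood at 277 ± 20.9, 292 ± 8.91 and 271 ± 6.28 FPKM in control, 15d-PGJ2 and 15d-PGJ2-PC, and Cox7a2 at 58.1 ± 4.56, 57.4 ± 5.44 and 56.2 ± 7.45 FPKM, and neither passed. Cox7c averaged 210.4 ± 22.9, 199 ± 12.4 and 194 ± 4.41 FPKM and did not pass. Cox5a averaged 286 ± 8.70, 267 ± 13.5 and 267 ± 8.34 FPKM and passed as a fall with 15d-PGJ2 only without 15d-PGJ2 replicate 2 (limma adjusted p = 0.0374) or when scaled to summed FPKM (adjusted p = 0.0233). Cox6b1 was at 239 to 268 FPKM and Cox6b2, the testis form, at or below 0.8. Cox6a2, the heart and muscle form of 6a, was at 7.11, 6.06 and 3.59 FPKM in control, 5.81, 8.37 and 8.60 with 15d-PGJ2 and 5.52, 5.81 and 5.83 with 15d-PGJ2-PC, about 23 reads a library. These groups overlapped and did not pass, but the 15d-PGJ2 value of 0.41 ± 0.20 became a call without control replicate 1 (0.58, limma adjusted p = 0.0374) or 15d-PGJ2 replicate 1 (0.57, adjusted p = 0.0423).

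Cox7a1, the muscle form of 7a, ranged from 0 to 2.48 FPKM (about 3 reads a library). Its difference from control passed as a fall for 15d-PGJ2 (limma adjusted p = 0.0425) and for 15d-PGJ2-PC (adjusted p = 0.0390) only when control replicate 3, the library at 0, was left out. Skeletal muscle markers, 10 listed genes, summed to 4.95 to 7.45 FPKM in control, 2.57 to 5.04 with 15d-PGJ2 and 4.86 to 6.53 with 15d-PGJ2-PC, with Ckm, muscle creatine kinase, at 0 to 0.390 FPKM. The part of these transcripts in the values of Cox6a2 and Cox7a1 was not tested. Ndufa4l2, a relative of Ndufa4 that is not part of the usual complex, was at 1.11, 0.740 and 0.370 FPKM in control, at 0, 0 and 0.380 with 15d-PGJ2 and at 0 in all 15d-PGJ2-PC libraries, about 1 read a library, and was not tested. The sums of the stromal, epidermis and hair, erythroid and neutrophil genes given above were also highest in control. Their part in the Ndufa4l2 values was not tested.

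Ndufa4, named for complex I but counted here in complex IV, where the protein is now placed, held 132, 129 and 123 FPKM in control, 139, 128 and 140.2 with 15d-PGJ2 and 132, 136 and 125 with 15d-PGJ2-PC, and did not pass. Cox7a2l was not counted in a complex here. It held 176, 177 and 162 FPKM in control, 180.0, 195 and 176 with 15d-PGJ2 and 185, 190.2 and 169 with 15d-PGJ2-PC. Both sets of groups overlapped. Cox7a2l passed as a rise with 15d-PGJ2 only with a replicate block (0.09, limma adjusted p = 0.0464).

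Complex V had 15 tested genes, of which 1 rose and 4 fell with 15d-PGJ2 and 0 rose and 1 fell with 15d-PGJ2-PC, or 33.3% and 6.67% beside 47.2% and 27.8% of all tested genes. The median log2 fold changes were -0.04 and -0.05. The 15d-PGJ2 count dropped from 5 to 3 without replicate 1 or 2 of either group.

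Atp5a1, the α subunit of the catalytic head (chromosome 18, 77773768 to 77782869), had the smallest p of all members. It stood at 161, 156 and 162 FPKM in control, 131, 130.3 and 124 FPKM with 15d-PGJ2 and 148, 146 and 146 FPKM with 15d-PGJ2-PC. The 3 groups did not overlap, with 15d-PGJ2-PC between the others. The fall was -0.31 ± 0.03 with 15d-PGJ2 (limma adjusted p = 2.19e-05) and -0.12 ± 0.03 with 15d-PGJ2-PC (adjusted p = 0.0211), and the difference between the compounds, 0.19 ± 0.03 (adjusted p = 0.00244), passed in all 18 refits and is below a change of 25%. The 15d-PGJ2-PC fall was lost without control replicate 1 (adjusted p = 0.0638) or 3 (0.0537), without 15d-PGJ2-PC replicate 2 (0.0665) or 3 (0.0612) and without the trend (0.0906).

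Its partner in the head, the catalytic β subunit gene Atp5b, did not follow. Atp5b held 259, 267 and 256 FPKM in control, 273, 266 and 269 FPKM with 15d-PGJ2 and 241, 262 and 254 FPKM with 15d-PGJ2-PC. Its log2 fold change with 15d-PGJ2 was 0.05 (95% interval -0.03 to 0.13) and the control and 15d-PGJ2 groups overlapped. It passed as lower with 15d-PGJ2-PC than with 15d-PGJ2 only by median ratio (-0.12, limma adjusted p = 0.0407). It was the most abundant complex V gene. The γ subunit gene Atp5c1 averaged 73.9 ± 5.68 FPKM in control and 67.5 ± 2.96 with 15d-PGJ2 and did not pass (limma adjusted p = 0.176).

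The membrane ring of complex V is made of copies of a single small protein that 3 genes encode with different import sequences. Of the 3, Atp5g3 fell with 15d-PGJ2 from 156, 156 and 148 FPKM to 144, 137 and 134 FPKM, a log2 fold change of -0.15 ± 0.04 (limma adjusted p = 0.00972). With 15d-PGJ2-PC it held 156, 150.5 and 147 FPKM and overlapped control. Atp5g2 stood at 227 ± 11.9, 226 ± 4.33 and 237 ± 6.74 FPKM and Atp5g1 at 65.6 ± 6.61, 60.3 ± 6.39 and 63.8 ± 6.72 FPKM in control, 15d-PGJ2 and 15d-PGJ2-PC (SD, n = 3), and neither passed. Atp5g3 was higher with 15d-PGJ2-PC than with 15d-PGJ2 (0.13 ± 0.04, adjusted p = 0.0420), a call lost without control replicate 1 (0.0537) or 2 (0.0563), and likewise without 15d-PGJ2 replicate 2 (0.117) or 3 (0.141) and without 15d-PGJ2-PC replicate 1 (0.143) or 2 (0.0920). It was lost as well without a filter (0.0606), by median ratio (0.0820), without the trend (0.124) and in the fit on 6 libraries (0.0509).

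The remaining complex V calls were small. Atp5f1, of the peripheral stalk, fell with 15d-PGJ2 from 101 ± 2.11 to 94.2 ± 2.26 FPKM (limma adjusted p = 0.0328), lost without control replicate 2 (0.120) or 15d-PGJ2 replicate 1 (0.0612) or 2 (0.116). It was also lost with quantile normalization, where the value moved from -0.10 to -0.05 (0.290), by median ratio (0.0653), without the trend (0.102) and in the fit on 6 libraries (0.0652). A replicate block lost it too (0.0537). With 15d-PGJ2-PC Atp5f1 passed as a fall without a filter (0.0418), when scaled to summed FPKM (0.0347) and by median ratio (0.0497). Atp5j, also of the stalk, fell from 96.7 ± 4.63 to 87.2 ± 2.66 FPKM (adjusted p = 0.0282), lost without control replicate 1 (0.107) or 2 (0.0563) or 15d-PGJ2 replicate 2 (0.0995), with quantile normalization, where the value moved from -0.15 to -0.08 (0.204), and without the trend (0.0718).

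Atp5d, the δ subunit of the central stalk, rose from 122 ± 7.34 to 135 ± 2.69 FPKM with 15d-PGJ2 (limma adjusted p = 0.0344), lost without control replicate 1 (0.0903) or 3 (0.112) or 15d-PGJ2 replicate 1 (0.0929) or 2 (0.0784), without a filter (0.0540), when scaled to summed FPKM (0.101) and without the trend (0.0884). That rise was lost too with a replicate block (0.0536). Atp5h, of the peripheral stalk, was lower with 15d-PGJ2-PC than with 15d-PGJ2 (127 ± 4.96 against 146 ± 12.0 FPKM, adjusted p = 0.0335), with control at 136 ± 3.91. That call was lost without 15d-PGJ2 replicate 1 (0.0813) or 3 (0.114) or 15d-PGJ2-PC replicate 1 (0.0930) or 3 (0.102), without a filter (0.0702), when scaled to summed FPKM (0.0518), without the trend (0.0859) and in the fit on 6 libraries (0.0511). A replicate block lost that Atp5h call as well (0.0603). Against control, Atp5h passed as a rise with 15d-PGJ2 only without 15d-PGJ2 replicate 2 (0.16, adjusted p = 0.0260). Atp5j2, of the membrane part, averaged 165 ± 8.59, 162 ± 7.04 and 153 ± 5.85 FPKM in control, 15d-PGJ2 and 15d-PGJ2-PC and did not pass.

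Over the complexes, the calls that held in all 18 refits (another pseudocount, other filters, scalings and models, and each library left out) numbered 13 of 22 for 15d-PGJ2. They were the falls of Ndufv1, Ndufb3, Sdha, Sdhb, Sdhd, Cyc1, Cox7b, Atp5a1 and Atp5g3 and the rises of Ndufs8, Ndufab1, Ndufb9 and Cox6a1. For 15d-PGJ2-PC 3 of 7 held, the falls of Ndufb3, Ndufb4 and Sdhb. Between the compounds 3 of 12 held, with Atp5a1 and Cyc1 higher and Ndufb8 lower with 15d-PGJ2-PC. A change of 25% was reached by 5 of the 22 (the rises of Ndufs8 and Ndufaf6 and the falls of Ndufa11, Ndufb3 and Ndufv1), by 1 of the 7 (Ndufb3) and by 0 of the 12.

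The genes around the respiratory chain, in lists drawn from textbook pathways, also included both rises and falls with 15d-PGJ2. Among 18 tested genes of the tricarboxylic acid cycle and pyruvate dehydrogenase, 7 rose and 4 fell with 15d-PGJ2, and 4 rose and 1 fell with 15d-PGJ2-PC. That is 61.1% and 27.8% of the list, beside 47.2% and 27.8% of all tested genes (22.2% rose and 25.0% fell with 15d-PGJ2, 13.8% and 14.1% with 15d-PGJ2-PC). The median log2 fold changes were -0.02 and 0.00, the same as over all tested genes. Cs, citrate synthase, rose from 49.3 ± 2.21 to 64.8 ± 1.02 FPKM with 15d-PGJ2 (SD, n = 3; limma adjusted p = 2.23e-05) and averaged 53.6 ± 0.155 with 15d-PGJ2-PC. Idh3g, a regulatory subunit of isocitrate dehydrogenase, fell from 60.0 ± 2.31 to 42.4 ± 3.35 FPKM (adjusted p = 4.73e-05), with 55.0 ± 1.90 for 15d-PGJ2-PC.

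Among 43 tested assembly factors that the naming rule does not reach, 5 rose and 3 fell with 15d-PGJ2, and 3 rose and 2 fell with 15d-PGJ2-PC, or 18.6% and 11.6% beside 47.2% and 27.8% of all tested genes. Coa5, a complex IV assembly factor, rose from 56.3 ± 0.556 to 75.0 ± 1.18 FPKM with 15d-PGJ2 (limma adjusted p = 3.84e-06) and to 71.8 ± 1.32 with 15d-PGJ2-PC (adjusted p = 4.02e-05). Atpaf1, an assembly factor of complex V that binds the β subunit, fell from 7.42 ± 0.748 to 4.43 ± 0.465 FPKM with 15d-PGJ2 (adjusted p = 0.00152), and Foxred1, of complex I, from 13.5 ± 0.130 to 9.61 ± 0.929 FPKM (adjusted p = 0.000804). Of the 4 complex II assembly factors, named after the values were seen, Sdhaf1, Sdhaf2 and Sdhaf3 did not pass and averaged 5.26, 15.7 and 2.98 FPKM in control. Sdhaf4 fell from 9.21 ± 1.58 to 6.70 ± 0.514 FPKM with 15d-PGJ2 (adjusted p = 0.0286), lost without control replicate 1 (0.0834) or 3 (0.105) or 15d-PGJ2 replicate 1 (0.0766) or 3 (0.0777), and without a filter (0.0613).

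Among 13 tested genes of coenzyme Q synthesis, 4 rose and 2 fell with 15d-PGJ2, and 4 rose and 0 fell with 15d-PGJ2-PC. These shares, 46.2% and 30.8%, are near the 47.2% and 27.8% of all tested genes. Coq7, a hydroxylase of that pathway, rose from 11.6 ± 1.30 to 16.8 ± 0.219 FPKM with 15d-PGJ2 (limma adjusted p = 0.000426) and to 16.5 ± 1.09 with 15d-PGJ2-PC (adjusted p = 0.00127). Coq9, which works with Coq7, fell from 14.7 ± 1.12 to 10.2 ± 0.652 FPKM with 15d-PGJ2 (adjusted p = 0.000462) and averaged 14.7 ± 1.08 with 15d-PGJ2-PC, which was higher than with 15d-PGJ2 (0.48 ± 0.08, adjusted p = 0.00152).

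Among 8 tested genes of ATP export, ATP synthase inhibition and uncoupling, 2 rose and 3 fell with 15d-PGJ2, and 1 rose and 1 fell with 15d-PGJ2-PC, or 62.5% and 25.0% beside 47.2% and 27.8% of all tested genes. Atpif1, the inhibitor protein of ATP synthase, rose from 55.3 ± 2.87 to 74.4 ± 5.04 FPKM with 15d-PGJ2 (limma adjusted p = 0.000250) and averaged 62.5 ± 3.58 with 15d-PGJ2-PC. Slc25a4, an ADP/ATP carrier, fell from 109 ± 12.9 to 79.7 ± 2.58 FPKM with 15d-PGJ2 (adjusted p = 0.000668), with 99.6 ± 5.53 for 15d-PGJ2-PC. Ucp2, an uncoupling protein of macrophages, stayed between 581 and 638 FPKM in all 9 libraries and did not pass.

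Among 14 tested regulators of mitochondrial gene expression, 3 rose and 3 fell with 15d-PGJ2, and 1 rose and 3 fell with 15d-PGJ2-PC, or 42.9% and 28.6%, near the 47.2% and 27.8% of all tested genes. Mterf3, a mitochondrial transcription and ribosome assembly factor, rose from 8.53 ± 0.534 to 11.1 ± 0.779 FPKM with 15d-PGJ2 (limma adjusted p = 0.00299). Gabpb2, a partner of Gabpa, fell from 11.1 ± 0.386 to 8.90 ± 0.316 FPKM (adjusted p = 0.00339), and Tefm, a mitochondrial transcription elongation factor, fell from 6.23 ± 0.721 to 3.75 ± 0.929 FPKM (adjusted p = 0.00599). The coactivator gene Ppargc1a was at or below 0.06 FPKM in every library. The 13 subunit genes of mitochondrial DNA were not analysed here.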

How the data were processed

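RNA of 9 libraries was extracted with Trizol and prepared with Illumina's TruSeq RNA kit, per the labels' protocols. The authors deposited 1 table of FPKM values, with 2 decimals, for 18049 genes, per the file headers; per the submitters' processing notes the build was mm10 and reads were aligned with BWA. For the BWA version, the counting tool and the treatment of reads shared with pseudogenes, nothing is stated in the sources used here, and many respiratory chain genes have processed pseudogenes, so their levels carry that uncertainty. All value columns were matched to samples (0 unmatched). From the steps between low values of 78 genes (tolerance 0.06 of a step), the depth came to about 5.4 M counted reads per library.

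Genes that reached 1 FPKM in 3 or more of the 9 libraries were tested on log2(FPKM + 1) with limma 3.58.1 in R 4.3.3: the moderated test with an intensity trend, 2-sided, all 9 libraries in 1 fit, no covariate, Benjamini-Hochberg adjustment over all 11309 tested genes of a contrast, threshold 0.05. Adjusted p-values are from this fit unless a left-out library or another setting is named, and then they are from that refit. Fold changes are on that scale and understate those of low genes. In simulated data for 15d-PGJ2 against control, 200 of 11309 genes were changed, all taken from the more abundant genes. The fit recovered 53.3% of changes of 25%, 89.7% of 1.5-fold and 100.0% of 2.0-fold changes, with 4 false calls. In the real comparison 47.2% of tested genes passed, so these shares do not measure the power there.

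Members were found by symbol and lists were drawn from textbook pathways; members and lists were chosen with earlier results of these data known. Genes named were, for each complex, up to 4 members with the smallest p in each contrast against control and up to 2 between the compounds, the most abundant member, the complex II and cytochrome genes and the tissue isoforms, and up to 3 genes per other list; Ndufa11, Ndufa12, Ndufb9, Ndufa2, Ndufa6, Ndufs6, Ndufaf6, Atp5d, other members without a call, Sdhaf genes and Ucp2 were named after their values were seen. Some genes that the rule covers are not reported here. Gene coordinates (1-based) and promoter windows are RefSeq's for GRCm38.p6. Alternatives were other pseudocounts (0.1), filters (none, 5 FPKM), scalings, no trend, a replicate block, 6 libraries per contrast, a further threshold of a 25% change, structural subunits alone and each library left out.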

Additional observations from a re-analysis of the deposited data

How the results depend on the processing

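The 141 pairs of a named member and a comparison were each recomputed under the alternatives. Of 2535 values, 2363 kept their side of the threshold, 135 lost the call and 37 gained it. Of the values that passed in the main fit or the refit, 0 changed sign. Sign changes of values that passed in neither were not counted. For 15d-PGJ2 against control (7 rises, 15 falls), testing without a filter left 4 rises, and a further threshold of a 25% change left 2 rises and 3 falls. The calls in complex III and cytochrome c (2) became 4 when scaled to summed FPKM and 1 without a filter, by median ratio, with quantile normalization, without the trend or with the replicate block. Those in complex V (5) became 3 with quantile normalization, 2 without the trend and 3 with the replicate block. For 15d-PGJ2-PC against control (0 rises, 7 falls), quantile normalization gave 2 rises and the fit on 6 libraries 1, the fit without the trend gave 4 falls and the 25% threshold 1. There, complex I (5) had 3 calls without a filter or without the trend, complex III and cytochrome c (0) had 1 when scaled to summed FPKM or fitted on 6 libraries, complex IV (0) had 1 with quantile normalization, and complex V (1) had 2 without a filter, scaled to summed FPKM or by median ratio, and 0 without the trend. Between the compounds (6 higher with 15d-PGJ2-PC, 6 lower), the 25% threshold left 0 and 0, and 3 were lower without a filter and 2 without the trend. There, complex I (5) had 3 without a filter or the trend; complex II (1) had 0 without a filter, by median ratio, with quantile normalization or without the trend, and 2 when scaled to summed FPKM or fitted on 6 libraries; complex IV (2) had 1 with quantile normalization or without the trend; complex V (3) had 1 without a filter, without the trend or on 6 libraries. Apart from settings that test fewer or more genes or fewer libraries, the cause was not tested.

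Leaving out each library in turn gave, for 15d-PGJ2 against control, 5 to 10 rises and 10 to 17 falls, with 6 to 10 calls in complex I, 3 to 3 in II, 1 to 3 in III and cytochrome c, 2 to 3 in IV and 3 to 5 in V. For 15d-PGJ2-PC against control it gave 0 to 2 rises and 3 to 10 falls, with 2 to 8, 1 to 1, 0 to 1, 0 to 1 and 0 to 2 calls in complexes I to V. Between the compounds it gave 2 to 7 higher and 2 to 7 lower, with 1 to 6, 0 to 2, 1 to 1, 1 to 2 and 1 to 3. No scaling moved the median of all tested genes by more than 0.05. Deviations of same-numbered libraries correlated across genes at -0.04 to 0.05, and those of differently numbered libraries at -0.07 to 0.10. Between control and 15d-PGJ2-PC, same-numbered libraries stood at 0.03 to 0.05 and the others at 0.01 or below. The labels do not say if replicate numbers pair the libraries, and such weak correlations cannot exclude it. As an alternative, the replicate block gave 9 rises and 12 falls, 0 and 6, and 6 and 6 in the 3 comparisons. At about 5.4 M reads, genes near 1 FPKM rest on few reads. The simulated recovery of only 53.3% for a change of 25% covered more abundant genes, and genes near 1 FPKM were not simulated as changed.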
